A study of Mus musculus with 63 samples.

Results

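The collagen genes were taken as every gene of the expression table whose symbol is Col, a number, the letter a and a second number, which gave 42 of 24766 genes. By the kind of protein they encode, 11 were fibrillar, 8 belonged to basement membranes (the Col4a chains, Col15a1 and Col18a1) and 23 were other collagens, of which 6 form beaded filaments (Col6a), 8 are associated with fibrils, 2 form networks (Col8a), 4 are transmembrane, 1 is the anchoring fibril collagen Col7a1 and 2 are further collagens (Col26a1 and Col28a1). They were measured by bulk mRNA sequencing of small intestinal tumours from 2 mice, 1 female and 1 male. Both mice carried Villin-creERT2, which directs Cre to the intestinal epithelium, 1 floxed Apc allele and the multicolour Rosa Confetti reporter, and both were given tamoxifen (4 mg) when over 8 weeks old and, 10 days later, N-ethyl-N-nitrosourea (ENU, 200 mg per kg). The 63 libraries were 20 major (larger) and 20 minor (smaller) clones, dissected apart from 20 heterotypic tumours, in which glands differed in Confetti label (10 tumours of each mouse), and 23 tumours sequenced undivided (10 of the female and 13 of the male mouse); the design text counts 20 such tumours, and the labels do not say which. There were no tumours without ENU and no normal tissue among these libraries, each sex was 1 mouse, and the Cre acts in epithelium only, so that stromal cells in a piece of tumour carried none of the engineered Apc loss.

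Collagens are secreted proteins in which chains wind around each other as trimers. Fibrillar collagens (types I, III and V among them) assemble into the fibres of the connective tissue and are made mostly by fibroblasts and smooth muscle cells. Type IV collagen forms the sheet-like network of basement membranes beneath epithelia and around vessels, with types XV and XVIII attached to it. Several chains are built together from different genes, so Col1a1 pairs with Col1a2, Col4a1 with Col4a2, and Col6a1 with Col6a2 and a longer Col6a chain.

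Some of these partner genes lie next to each other. In the GRCm39 annotation Col4a1 (chr8:11248423-11362826, minus strand) and Col4a2 (chr8:11362471-11499287, plus strand) are read away from each other, and in the RefSeq promoter table (GRCm38.p6) their start sites are 21 bases apart. Col6a1 (chr10:76543440-76562283) and Col6a2 (chr10:76429660-76459549) follow each other on the minus strand with 83890 bases between them, while Col1a1 (chr11:94827050-94843868, plus strand) and Col1a2 (chr6:4504814-4541555, plus strand) are on different chromosomes. Stretches from 150 to 31 bases before the RefSeq start site are shown for chains whose partners varied together (Col1a2, Col4a1, Col6a1 and Col6a2) and for Col3a1, the fibrillar gene with the highest level. Each is written 5′ to 3′ in the direction of its gene, and capitals mark CCAAT (or ATTGG, its other strand), GGGCGG (or CCGCCC) or TATAAA (or TTTATA).
Col1a2 (chr6:4505468-4505587, plus strand): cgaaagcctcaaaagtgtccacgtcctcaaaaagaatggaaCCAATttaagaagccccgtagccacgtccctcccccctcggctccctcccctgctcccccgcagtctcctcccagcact
Col3a1 (chr1:45311388-45311507, plus strand): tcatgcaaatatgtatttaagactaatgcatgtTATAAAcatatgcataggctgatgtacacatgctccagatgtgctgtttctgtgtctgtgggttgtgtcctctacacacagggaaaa
Col4a1 (chr8:11312857-11312976, minus strand): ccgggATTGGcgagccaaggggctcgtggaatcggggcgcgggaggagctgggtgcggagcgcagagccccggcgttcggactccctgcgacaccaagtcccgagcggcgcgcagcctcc
Col6a1 (chr10:76726075-76726194, minus strand): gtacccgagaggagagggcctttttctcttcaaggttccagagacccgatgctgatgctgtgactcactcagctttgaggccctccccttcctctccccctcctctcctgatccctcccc
Col6a2 (chr10:76623435-76623554, minus strand): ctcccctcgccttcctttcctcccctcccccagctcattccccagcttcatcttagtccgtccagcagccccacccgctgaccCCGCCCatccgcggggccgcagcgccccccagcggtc
The stretches shared no single one of these motifs: Col1a2 and Col4a1 held a CCAAT, Col3a1 a TATAAA and Col6a2 a GGGCGG. Over the full RefSeq windows of 250 bases before to 50 after the start, 33 of 42 members had a window. CCAAT, on either strand, was in 13 of the 36 member windows and in 37.4% of all 32851 windows, GGGCGG in 23 and 35.7%, and TATAAA in 4 and 13.6%. A match describes the letters only.

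Values are the authors' normalised counts, in which the depth of a library has been scaled out, so the precision of a value is judged here from the spread between tumours. The collagen genes together made up 0.0596% of the normalised counts of a library at the median, between 0.00848% (M5, an undivided tumour of the male mouse) and 0.178% (the major clone of F23, a tumour of the female mouse). Tumours are named by mouse (F or M) and number. The undivided tumours M15, M17 and M18 stood apart from the other 60 libraries, with normalised counts of Krt8 of 52616, 47505 and 64171 against at least 82508, and of Col18a1 of 332, 199 and 255 against at least 433, and values without them are given for the comparisons they enter. The epithelial markers (Epcam, Cdh1, Vil1 and 5 others) were high in every library, with a summed count of at least 175067, against at most 6518 for the 10 fibroblast markers in any library. In bulk samples fewer cells of a type and less RNA per cell cannot be told apart.

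Per kb of transcript the basement membrane gene Col4a1 had the highest mean level over the 63 libraries, 710 ± 377 normalised counts per kb (SD), ahead of Col18a1 (421 ± 262 per kb), which encodes the precursor of endostatin, and Col4a2 (407 ± 231 per kb). Next came the fibrillar genes Col3a1 (319 ± 254 per kb) and Col1a1 (255 ± 219 per kb), then Col6a1 (196 ± 124 per kb) and the fibril-associated Col9a3 (195 ± 163 per kb). The gap to the next gene in this order was smaller than the SD of the higher of the pair. At the other end 13 members had a mean normalised count under 10 over all libraries: Col2a1, Col4a3, Col4a4, Col4a6, Col6a6, Col8a2, Col9a1, Col11a1, Col17a1, Col20a1, Col24a1, Col25a1 and Col26a1. Among them Col11a1 was at 0 in 40 of 63 libraries and Col8a2 in 34. Col4a3, Col4a4 and Col4a5, which together form the collagen IV of the kidney filter, had mean levels of 1.004, 0.542 and 7.53 normalised counts per kb.

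**Figure D1:**
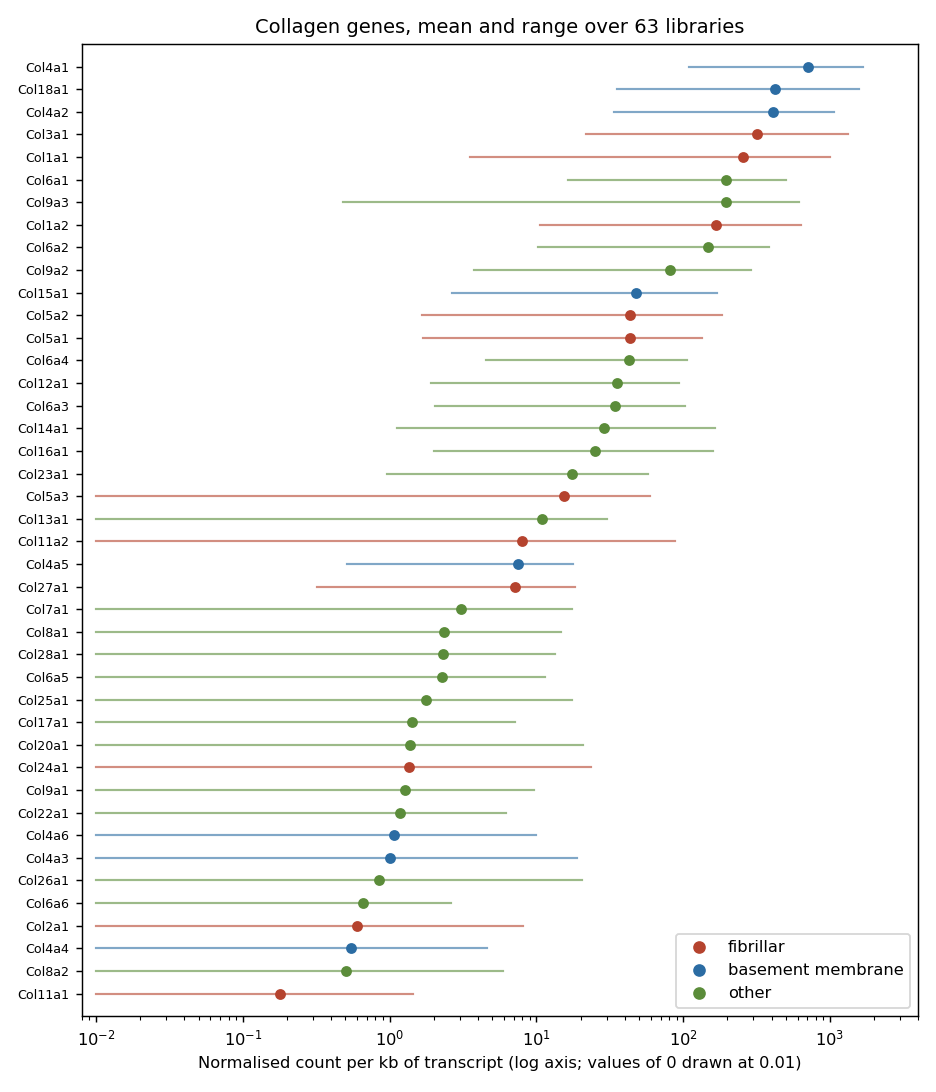
Mean (point) and range (line) of the normalised count per kb of transcript of each of the 42 collagen genes over 63 libraries, on a log axis, coloured by class. Col4a1 is highest with a mean of 710 per kb, and the lines of most genes span more than 10-fold.

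Levels varied widely between tumours of 1 group. Col1a1, the main chain of type I collagen, ran from a normalised count of 225.5 through a median of 1806 to 5908 in the 20 major clones, from 106 through 1312 to 5375 in the 20 minor clones, and from 21.1 through 883 to 2751 in the 23 undivided tumours. The 3 groups overlapped over most of their range. Col4a1 ran from 1246 through 5543 to 10030 in major clones, from 1229 through 4896 to 11087 in minor clones and from 722 through 3834 to 7550 in undivided tumours, so its ranges overlapped too and were narrower on a fold scale. Col9a3 ran from 89.9 through 603 to 1582, from 24.4 through 523 to 1753, and from 1.36 through 237 to 1622 in the same order. This was the widest range on a fold scale among the members that were above 0 in every library.

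The other abundant members overlapped between the groups in the same way. Normalised counts of Col3a1 ran from 346 through a median of 2334 to 7317 in major clones, from 188 through 1518 to 5516 in minor clones and from 122 through 1138 to 3811 in undivided tumours. Those of Col6a1 ran from 75.1 through 944 to 2064, from 74.8 through 725 to 1842 and from 67.3 through 648 to 1933. Both had their highest median in major clones and their lowest in undivided tumours. Col18a1 differed in its order, with values from 939 through 2906 to 5703 in major clones, from 899 through 1961 to 4187 in minor clones and from 199 through 2177 to 8743 in undivided tumours, which held both its lowest and its highest value. For Col15a1 the medians of minor clones and undivided tumours were 228 and 231, against 328 in major clones.

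The first comparison asked whether the 2 clones of a tumour differed. In major clones 26 of 29 collagen genes that passed a mean of at least 10 were higher than in the minor clone of the same tumour, with a median log2 difference of 0.52, against a median of 0.01 over all genes tested, of which 51.8% were higher. No member passed the test (limma with tumour as a block, adjusted p under 0.05), while 1.14% of the 16428 genes tested did (188). At an unadjusted p under 0.05 there were 12 members, all higher in major clones (6 fibrillar, 2 of the basement membrane and 4 others), where 22.4% of all genes tested had such a p. The 13 members left out by the filter on low values are not counted here.

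All 9 fibrillar genes tested had a positive mean difference, at a median of 0.74. They include the low gene Col24a1, named after its values were seen, which counts in every tally of members tested between clones. Its median normalised count was 6.60 in major and 2.18 in minor clones. Its mean was 8.46 in major and 12.2 in minor clones, where the minor clone of F26 reached 168. Its log2 difference was 0.93 ± 2.30 (SD), positive in 16 of 20 tumours and -5.94 in F26. Col1a1 was higher by 0.74 on the log2 scale (95% interval 0.07 to 1.42, adjusted p = 0.181), Col1a2 by 0.69 (0.12 to 1.27, adjusted p = 0.145) and Col3a1, which encodes the type III collagen of pliable tissues, by 0.66 (0.10 to 1.21, adjusted p = 0.149). Between single tumours the difference of Col1a1 went from -1.66 (F27) to 4.31 (M29), and it was positive in 14 of 20. For type V collagen, which sits within type I fibrils, Col5a2 was higher by 0.76 (0.17 to 1.34, adjusted p = 0.120) and Col5a1 by 0.42 (-0.15 to 0.98, adjusted p = 0.378). Of the members closest to the threshold, chosen after their values were seen, Col11a2 was higher by 1.11 (0.44 to 1.79, adjusted p = 0.0688) and Col5a3 by 0.87 (0.30 to 1.44, adjusted p = 0.0774), each in 15 of 20 tumours. Without F20 or without M31, Col11a2 passed the test (1.29 and 1.21 on the log2 scale), and without F19 or without F27 Col5a3 did (0.95 and 1.01). Col11a2 is a low gene, with a median normalised count of 19.3 in major and 7.97 in minor clones.

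Among the basement membrane genes the mean differences were unequal. The multiplexin Col15a1 was higher in major clones by 0.57 (0.09 to 1.06, adjusted p = 0.153, limma), in 14 of 20 tumours. The multiplexin Col18a1 was higher by 0.45 (0.10 to 0.80, adjusted p = 0.122, limma), in 11 of 20 tumours, the same count as Col4a2. The 3 type IV chains tested lay nearer to 0, with log2 differences of 0.12 for Col4a1 (-0.38 to 0.62, adjusted p = 0.814), 0.25 for Col4a2 (-0.25 to 0.75, adjusted p = 0.565) and -0.01 for Col4a5 (-0.39 to 0.37, adjusted p = 0.985). Whether the multiplexins and the type IV chains differed from each other was not tested. The intervals of Col4a1 and Col4a5 include 0 and reach neither 1 nor -1, so a mean difference of 2-fold in either direction lies outside them.

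Of the 15 other collagens tested 13 had a positive mean difference, at a median of 0.36. Of the beaded filament genes, whose product surrounds cells in loose connective tissue, Col6a2 was higher by 0.59 (0.01 to 1.18, adjusted p = 0.214), Col6a1 by 0.55 (-0.04 to 1.14, adjusted p = 0.255) and Col6a3 by 0.20 (-0.48 to 0.88, adjusted p = 0.759). Col13a1, a transmembrane collagen, was higher by 0.95 (0.36 to 1.53, adjusted p = 0.0705, limma) in 17 of 20 tumours. The fibril-associated Col14a1 was higher by 0.78 (0.26 to 1.31, adjusted p = 0.0847, limma) in 15 of 20. Both were chosen after their values were seen. Col13a1 passed the test without F19 (0.997) or without F27 (1.06), and Col14a1 without F19 (0.88) or without F29 (0.90). Col9a3 and Col9a2, chains of the fibril-associated type IX, gave 0.36 (-0.18 to 0.90, adjusted p = 0.432) and 0.19 (-0.29 to 0.68, adjusted p = 0.658). Chosen after their values were seen, Col12a1 (-0.14, interval -0.57 to 0.29, adjusted p = 0.732), Col23a1 (-0.25, interval -0.69 to 0.20, adjusted p = 0.519) and Col4a5 were the 3 members tested with a mean below 0. Col23a1 was higher in the major clone in only 5 of 20 tumours.

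**Figure D2:**
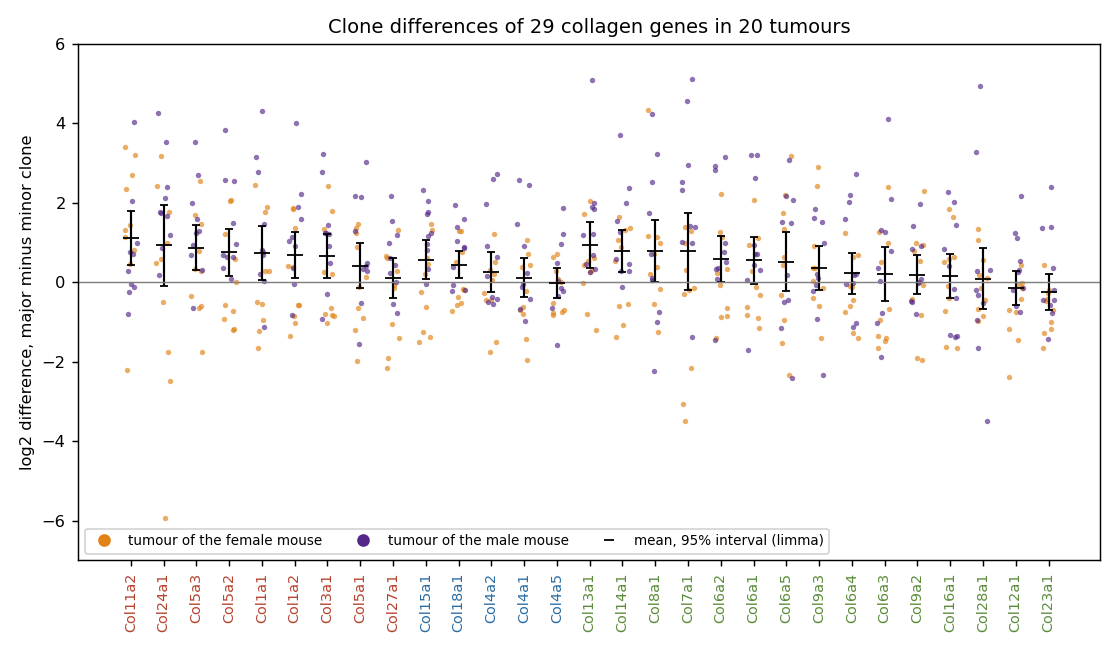
Log2 difference between the major and the minor clone of each of 20 tumours (points, coloured by mouse) for the 29 collagen genes tested, with the mean and 95% interval from limma in black and gene names coloured by class (red fibrillar, blue basement membrane, green other). The means of 26 genes lie above 0, and the single tumours scatter on both sides of 0.

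The differences did not come evenly from the tumours. Over the 29 members the median clone difference of a tumour ran from -1.15 (F27) to 2.40 (M29). It was 2.10 in M28, 1.60 in M31, 1.26 in F23 and 1.23 in F30, and in F23 every one of the 29 members was higher in the major clone. The reverse was seen in F20, F27 and F28, where 3, 5 and 6 of 29 were higher in the major clone and the medians were -0.68, -1.15 and -0.81. In M19, M25 and M27 the fibrillar median was positive (0.99, 0.02 and 0.69) and the basement membrane median negative (-0.22, -0.04 and -0.41).

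**Figure D3:**
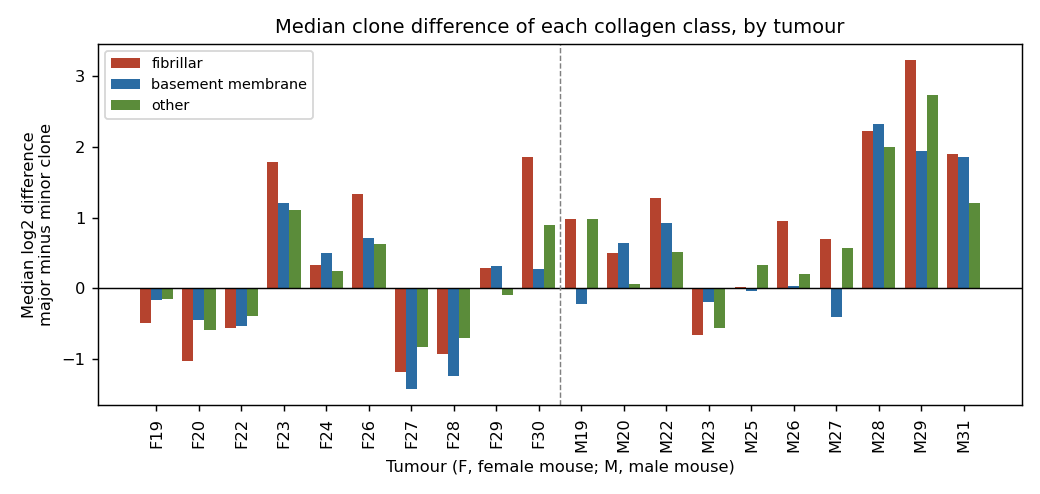
Median log2 difference, major minus minor clone, over the tested members of each collagen class (bars) in each of 20 tumours. M28, M29 and M31 have the 3 highest bars in each class, and F27 has the lowest bar in each.

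By mouse, the median over members was 0.04 in the 10 tumours of the female (18 of 31 tested members higher in major clones) and 0.76 in the 10 tumours of the male (28 of 28 higher). Col1a1 was higher in the major clone in 5 of 10 tumours of the female and 9 of 10 of the male. Col5a2 was higher in 5 of 10 and 10 of 10, and Col15a1 differed by -0.09 ± 1.08 and 1.24 ± 0.75 (SD, n = 10 each). In the male mouse alone Col15a1 passed the test (1.24, adjusted p = 0.0479, limma). The test of the difference between the mice called no member, and 0% of all genes tested (limma, adjusted p under 0.05). At an unadjusted p under 0.05 there were 9 members, all with the larger difference in the male, where 7.65% of all genes had such a p. Male minus female, the log2 clone difference of Col15a1 was 1.33 (95% interval 0.52 to 2.14, adjusted p = 0.633), that of Col5a2 was 1.25 (0.18 to 2.32, adjusted p = 0.633), that of Col1a1 was 1.13 (adjusted p = 0.682) and that of Col11a2, in the other direction, was -0.70 (adjusted p = 0.817). Mouse and sex cannot be told apart here.

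Genes that modify, cut, bind or degrade collagen were read from 6 lists, and none of their members passed the test between clones. Of 18 tested genes of collagen maturation (hydroxylases, chaperones, secretion) 10 had a positive difference, the median being 0.08, and of 12 genes of propeptide cleavage and cross-linking 11 were, with a median of 0.20. All 9 tested genes of proteoglycans and other partners of fibrils were higher (median 0.56), as were 9 of 11 genes of degradation and its inhibitors (0.44), 7 of 8 receptors (0.32) and 12 of 14 other basement membrane genes such as laminins and nidogens (0.19).

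Marker genes of several cell types also differed on average between the clones. In major clones all 8 smooth muscle markers were higher (median log2 difference 0.74), as were 5 of 6 tested fibroblast markers (0.37; Mfap5, Fap, Gli1 and Twist2 were under the filter), 6 of 9 endothelial markers (0.34), 7 of 7 immune cell markers (0.41) and 8 of 8 epithelial markers (0.11), with no marker past the test. The summed smooth muscle markers ran from 623 through a median of 1815 to 9410 normalised counts in major clones and from 521 through 1308 to 10439 in minor clones. The summed fibroblast markers ran from 2463 through 4267 to 6518 and from 2231 through 3697 to 6347, and the endothelial sums from 1367 through 6542 to 13287 and from 1450 through 8797 to 13033. The ranges of the sums overlapped almost wholly in each list. The largest single part of the fibroblast sum was Fbln1, from 2003 to 3776 in major and from 1686 to 3670 in minor clones. Pdgfrb ran from 52.3 to 710 and from 21.4 to 569, so the sum says little about the lower fibroblast markers. Both genes were named after their values were seen. Most of the endothelial sum was Cdh5, with a median of 4583 in major and 5533 in minor clones, while the other 8 endothelial markers summed to medians of 3415 and 2473, in the opposite order. Their part in the collagen differences was not tested.

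Across tumours many collagen genes followed the fibroblast, endothelial and smooth muscle markers, and fewer followed the immune cell and epithelial markers. Correlations used values centred within each mouse and 100000 shuffles within mice, with p adjusted over 348 pairs of a member and a marker list, and 1e-05 was the smallest unadjusted p that the shuffles could give. Over the 23 undivided tumours the members' median Pearson r was 0.68 with the mean log2 level of the fibroblast markers, 0.68 with endothelial, 0.46 with smooth muscle, 0.50 with glial and neuronal, 0.34 with immune cell and 0.30 with epithelial markers, while the medians over all genes lay between -0.01 and 0.05. The 90th percentile over all genes was 0.53 for fibroblast, 0.52 for endothelial, 0.42 for smooth muscle, 0.53 for glial and neuronal, 0.39 for immune cell and 0.62 for epithelial markers, so the members' medians lay above it for the first 3 lists alone. For immune cell markers the median r was 0.07 in the female and 0.49 in the male mouse. Without M15, M17 and M18 the medians were 0.71 for fibroblast, 0.69 for endothelial and 0.53 for smooth muscle markers. With fibroblast markers 21 of 29 members passed (permutation test, adjusted p under 0.05, all positive), with endothelial markers 22, with glial and neuronal 16, with smooth muscle 14, with immune cell 9 and with epithelial markers 2. For the clone differences of 20 tumours the counts in the same order were 17, 17, 3, 15, 0 and 0 of 29. The members' median r there was, in that order, 0.62, 0.60, 0.25, 0.53, 0.16 and 0.03. The 90th percentiles over all genes were 0.40, 0.43, 0.45, 0.36, 0.34 and 0.45. The share of all genes that would pass was not computed.

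Col3a1 had the highest r with the fibroblast markers in undivided tumours, 0.92 (rho 0.90, adjusted permutation p = 0.000217 and 0.000268, n = 23), and 0.90 without the 2 tumours farthest out (M4 and M6). Within the female and the male mouse it was 0.88 and 0.94. For the clone differences its r was 0.86 (rho 0.82, adjusted permutation p = 0.000217 and 0.000544, n = 20), or 0.81 without M28 and F30. Col4a1 followed the fibroblast markers less closely in undivided tumours, with r = 0.61 (rho 0.69, adjusted permutation p = 0.0204 and 0.00616), 0.33 within the female and 0.67 within the male mouse. With the endothelial markers the r of Col4a1 was 0.70 (rho 0.78, adjusted permutation p = 0.00712 and 0.00191), and 0.77 and 0.70 within the mice.

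Col9a3 and Col9a2 went another way. In undivided tumours Col9a3 followed the fibroblast markers (r = 0.65, rho = 0.64, adjusted permutation p = 0.0108 and 0.0121). In the clone differences its r with them was -0.15 (rho -0.22, adjusted permutation p = 0.669 and 0.490), 0.28 within the female and -0.62 within the male mouse. It was highest there with the glial and neuronal list, of which only 2 of 7 genes (S100b and Uchl1) passed the filter, at 0.73 (rho 0.65, adjusted permutation p = 0.00249 and 0.0108, n = 20), or 0.71 without F29 and M22, and 0.79 and 0.68 within the mice. For Col9a2 the same r was 0.63 (rho 0.60, adjusted permutation p = 0.0108 and 0.0230). The defining glial and neuronal genes Sox10, Gfap and Elavl4 had means under 10 in every group, and the part of these cells in the result was not tested.

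**Figure D4:**
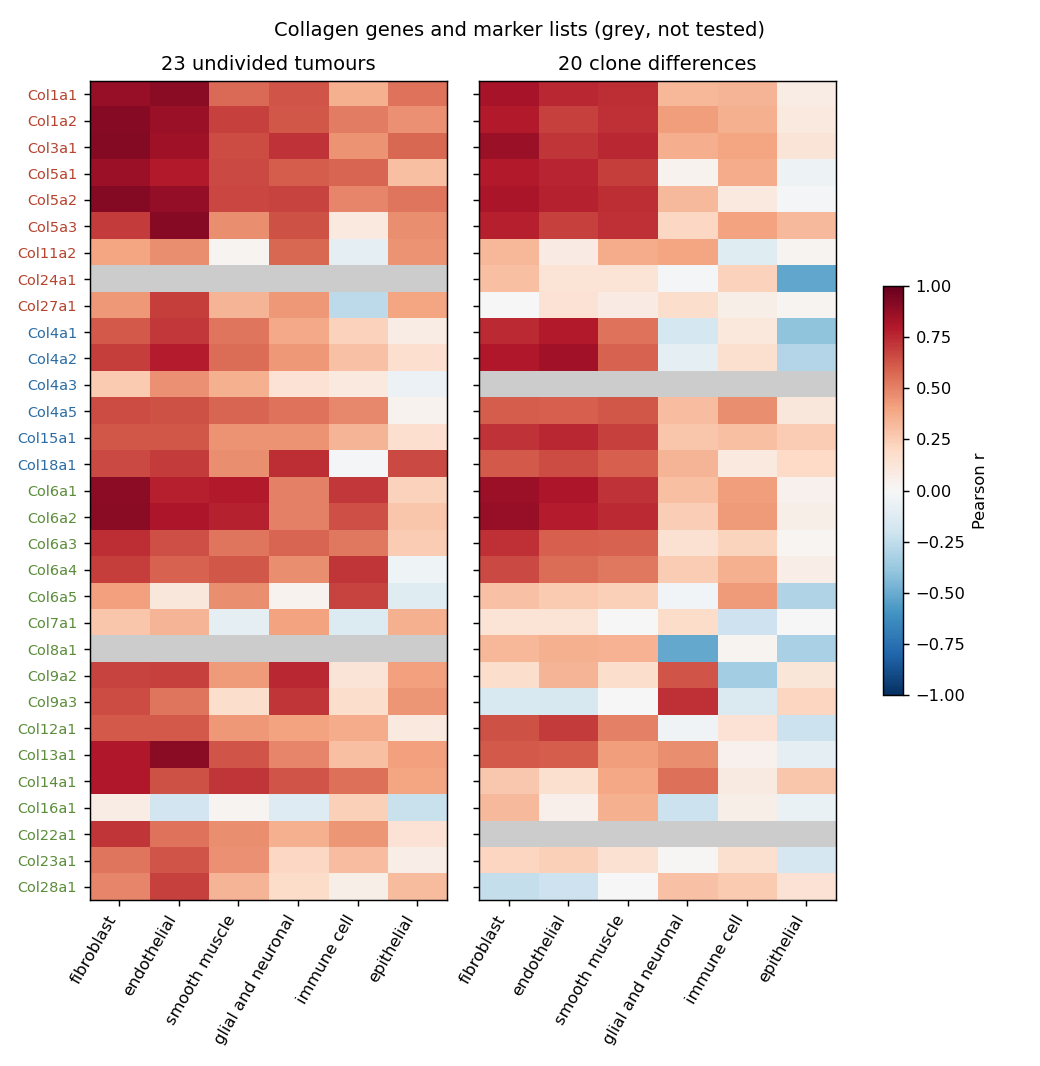
Pearson r (colour) of each collagen gene with the mean log2 level of 6 marker lists, over 23 undivided tumours (left) and over the major minus minor differences of 20 tumours (right), values centred within mouse. Grey rows were under the filter in that set of libraries. Col1a1, Col1a2, Col3a1, Col5a2, Col4a2, Col6a1 and Col6a2 are deep red in the fibroblast and endothelial columns of both panels, and Col9a3 is red in the glial and neuronal column of both (0.72 and 0.73).

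The ratios of partner chains varied less between libraries than the levels of either chain. The only other ratio computed, Col1a1 to Col4a1, had an SD of 1.18 on the log2 scale. Whether other chains that are not partners kept ratios as close was not tested. Over 63 libraries the log2 ratio of Col6a1 to Col6a2 per kb had an SD of 0.19, against SDs of 1.26 and 1.33 for the log2 levels of the 2 genes. The ratio of Col4a1 to Col4a2, 1.81 per kb on average, had an SD of 0.27 on the log2 scale against 0.91 and 1.02, and that of Col1a1 to Col1a2 (1.35 per kb) one of 0.50 against 1.66 and 1.35. The ratio of Col1a1 to Col1a2 was lowest in M17, the undivided tumour with the least Col1a1, at -1.52 on the log2 scale. Looser were Col5a1 to Col5a2 (SD 0.68) and Col9a3 to Col9a2 (SD 1.14). Between clones the ratio of Col1a1 to Col4a1 was higher in major clones by 0.63 ± 1.21 on the log2 scale (SD, n = 20 tumours, higher in 12), and that of Col4a1 to Col4a2 lower, -0.14 ± 0.24 (higher in 6). Neither passed a two-sided permutation test that swapped clone labels within tumours (100000 shuffles, adjusted p = 0.0938 for each over 6 ratios).

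Many pairs of members rose and fell together. Of 406 pairs 200 passed over the undivided tumours, all positive (permutation test, adjusted p under 0.05 over 812 relations). Over the clone differences 120 passed, 118 of them positive. The share among pairs of any genes that would pass was not computed, so these counts are not a trait of collagens. Col6a1 and Col6a2 had the highest r, 0.99 in undivided tumours (rho 0.99, adjusted permutation p = 0.00015 and 0.000203, n = 23) and 0.99 in clone differences (rho 0.98, the same adjusted permutation p, n = 20). Of the 2 negative pairs, named after their values were seen, Col27a1 and Col16a1 had r = -0.68 in clone differences (rho -0.68, adjusted permutation p = 0.00529 and 0.00679, n = 20), -0.60 without the 2 farthest tumours, and -0.51 and -0.90 within the female and the male mouse. In undivided tumours their r was -0.38 (rho -0.34, adjusted permutation p = 0.152 and 0.205, n = 23). Col9a3 and Col8a1 had r = -0.55 in clone differences (rho -0.42, adjusted permutation p = 0.0393 and 0.132, n = 20), and -0.35 without the 2 farthest tumours, so that relation rests on few tumours.

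Undivided tumours, which are not the tumours that the clones came from, were compared with each kind of clone. The undivided libraries are shared by the 2 comparisons. Against major clones 27 of 30 members tested were lower in undivided tumours, with a median log2 difference of -0.58 (all genes, -0.01), and against minor clones 17 of 30 were lower, with a median of -0.09 (all genes, -0.01). No member passed either test (limma with mouse as a covariate, adjusted p under 0.05), where 0.0121% of 16510 genes tested passed against major and 3.7% of 16491 against minor clones. At an unadjusted p under 0.05 there were 10 members, all lower, against major clones (12% of all genes) and 3, all lower, against minor clones (19.6% of all genes). The median against major clones was -0.13 in the female and -0.94 in the male mouse alone, and -0.47 without M15, M17 and M18. Against minor clones the sign of the median was not stable: it was -0.21 in the female and 0.03 in the male mouse alone, 0.02 without those 3 tumours, and ran from -0.24 to 0.04 without 1 library in turn. The marker lists did not all go the way of the members. Against major clones 0 of 9 endothelial markers were higher in undivided tumours (median log2 difference -0.42), 1 of 6 fibroblast markers (-0.41) and 1 of 8 smooth muscle markers (-0.24). There 2 of 8 epithelial (-0.07), 0 of 2 glial and neuronal (-0.49) and 4 of 7 immune cell markers (0.05) were higher. Against minor clones 8 of 8 smooth muscle (0.42), 7 of 7 immune cell (0.44) and 4 of 6 fibroblast markers (0.06) were higher. So were 5 of 9 endothelial (0.03), 4 of 8 epithelial (0.02) and 1 of 2 glial and neuronal markers (-0.23). The part of these markers in the result was not tested.

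Against major clones the largest differences were those of Col5a3, lower by 1.72 on the log2 scale (-1.72, interval -2.99 to -0.46, adjusted p = 0.327), and Col9a3 (-1.70, interval -2.80 to -0.60, adjusted p = 0.269). Col1a1 gave -1.28 (-2.22 to -0.33, adjusted p = 0.327), Col5a2 -0.99 (-1.85 to -0.14, adjusted p = 0.365), Col4a2 -0.63 (-1.18 to -0.08, adjusted p = 0.371) and Col4a1 -0.53 (-1.05 to -0.01, adjusted p = 0.408). Against minor clones Col9a3 gave -1.34 (-2.48 to -0.21, adjusted p = 0.163), Col23a1 -0.89 (-1.53 to -0.25, adjusted p = 0.0968) and Col12a1, a fibril-associated collagen, -0.84 (-1.46 to -0.21, adjusted p = 0.111), the last 2 chosen after their values were seen. There Col1a1 (-0.50, adjusted p = 0.619) and Col4a1 (-0.38, adjusted p = 0.396) lay closer to 0. All p are from limma.

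In the collagen pathway lists 2 genes of the maturation list passed against minor clones, both lower in undivided tumours. Plod2, the lysyl hydroxylase of collagen telopeptides, was lower by 1.66 on the log2 scale (-1.66, interval -2.39 to -0.94, adjusted p = 0.0107) and P4ha2, a prolyl 4-hydroxylase subunit, by 0.80 (-0.80, interval -1.16 to -0.45, adjusted p = 0.0113). They were 2 of 17 tested genes of that list, whose median was -0.26 and of which 16 were lower, where 3.7% of all genes passed and 46.7% were higher. In the other 5 pathway lists none passed. Markers that passed were Cdh5 of the endothelial list, Cd3e of the immune cell list and Cldn7 of the epithelial list. In undivided tumours Cdh5 was lower (-1.12, adjusted p = 0.0473, limma). Cd3e (0.94, adjusted p = 0.0437, limma) and Cldn7 (0.28, adjusted p = 0.0441, limma) were higher. Their lists did not all go the same way: 5 of 9 endothelial markers were higher (median 0.03), 7 of 7 immune cell markers (0.44) and 4 of 8 epithelial markers (0.02). Without M15, M17 and M18, Plod2 (-1.41, adjusted p = 0.0187), P4ha2 (-0.75, adjusted p = 0.0149) and Cldn7 (0.32, adjusted p = 0.0216) passed, and Cdh5 (-0.86, adjusted p = 0.0737) and Cd3e (0.83, adjusted p = 0.0715) did not.

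By segment, the 23 undivided tumours carried the labels SI10 (12 tumours) and SI20 (11), which the sources used here do not explain further. In SI20 tumours 27 of 29 members tested were higher, with a median log2 difference of 0.66 against 0.00 over all genes. None passed the test (limma with mouse as a covariate), where 0.17% of 16511 genes did, and 5 members had an unadjusted p under 0.05 (7.62% of all genes), Col5a3 (2.24), Col9a3 (2.15), Col1a1 (1.58), Col15a1 (1.26) and, with the smallest difference of the 5, Col12a1, with adjusted p between 0.449 and 0.605. Col1a2 (0.94), Col5a2 (1.07), Col4a1 (0.53), Col18a1 (0.53) and Col6a1 (0.42) were higher as well, without passing. Without M15, M17 and M18 the median was 0.65, with 26 of 28 higher, and 0 of all genes passed.

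These values differed between the mice. In the 5 SI10 and 5 SI20 tumours of the female the normalised counts of Col1a1 had medians of 1566 (536 to 2363) and 1028 (508 to 1717), while in the 7 SI10 and 6 SI20 tumours of the male they had medians of 174 (21.1 to 999) and 1433 (372 to 2751). The ranges overlapped in each mouse. On the log2 scale the difference of Col1a1 was -0.12 in the female and 2.90 in the male, that of Col6a1 -0.61 and 1.22, that of Col4a1 0.16 and 0.81 and that of Col9a3 0.03 and 3.78. Over members the median was -0.12 in the female and 1.47 in the male. A test of this difference, added after these values were seen, called no member and 0% of all genes (limma, adjusted p under 0.05). All 29 members had the larger difference in the male, 12 of them at an unadjusted p under 0.05 (5.27% of all genes), with a median of 1.63. It was 3.75 for Col9a3 (95% interval 0.75 to 6.76, adjusted p = 0.851), 3.01 for Col1a1 (0.78 to 5.24, adjusted p = 0.829), 2.90 for Col14a1 (chosen, like Col12a1, after its values were seen; 0.96 to 4.84, adjusted p = 0.829), 2.69 for Col1a2 (0.90 to 4.47, adjusted p = 0.829), 2.21 for Col12a1 (0.62 to 3.79, adjusted p = 0.829) and 0.64 for Col4a1 (-0.77 to 2.05). Markers moved alongside, with medians of this difference of 1.71 for smooth muscle, 1.25 for glial and neuronal, 0.98 for immune cell, 0.90 for endothelial, 0.90 for fibroblast and 0.02 for epithelial markers, and their part was not tested. Without M15, M17 and M18 all 28 members tested still had the larger difference in the male, with a median of 1.68.

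**Figure D5:**
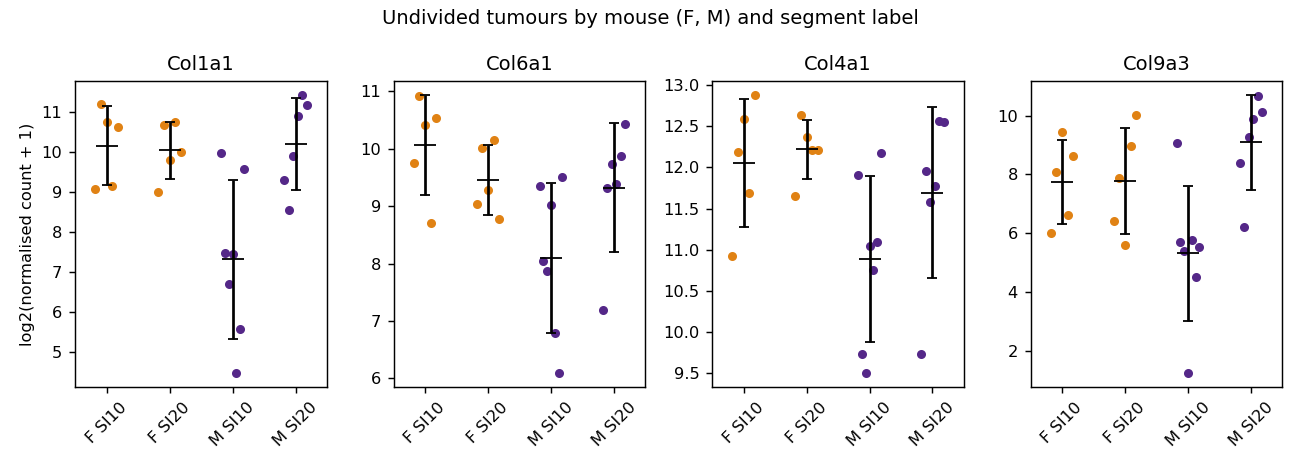
Log2(normalised count + 1) of Col1a1, Col6a1, Col4a1 and Col9a3 in the 23 undivided tumours by mouse (F female, M male) and segment label, with each tumour as a point and the mean and SD in black. The SI10 tumours of the male mouse hold the lowest value of each of the 4 genes, and the female groups overlap.

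In the divided tumours the segments lay closer. With the mean of the 2 clones as the value of a tumour, 10 SI20 against 7 SI10 tumours, 19 of 29 members were higher in SI20, with a median log2 difference of 0.15. The direction depended on single tumours and on the clone: the median was -0.15 without M19 (8 of 29 higher), -0.07 without M23 (11 of 29) and -0.11 in minor clones only (11 of 29). None passed the test (limma with mouse as a covariate), where 0.28% of 16428 genes did, and Col9a3 alone had an unadjusted p under 0.05 (0.99, interval 0.16 to 1.83, adjusted p = 0.291; 14.3% of all genes had such a p). Its partner Col9a2 gave 0.75 (adjusted p = 0.357). Outside the test stayed the 2 tumours from SI30 (F29 and F30), whose mean log2 levels of Col1a1 were 8.61 and 9.97, and F22, whose clones carry different segment labels. The clone difference itself did not pass between SI20 and SI10 tumours for any member or any other gene (1 member and 4.07% of all genes at an unadjusted p under 0.05), nor did the segment difference between divided and undivided tumours (0 members and 1.62%).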

How the data were processed

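Poly-A bulk RNA sequencing values of 63 tumour libraries were analysed as a signal deposited by the authors: counts per gene from Salmon (1.9.0; mouse GRCm39 annotation) after trimming with Trimmomatic (0.39). The authors normalised these counts with DESeq2 before they deposited them. Per the labels, FastQC (0.11.9), STAR (2.7.7a) and Picard (2.27.3) served for the other processing steps. Whole reads could not be recovered from these values, so the depth per library is unknown and the precision is given by the spread between tumours.

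Here values were analysed as log2(value + 1), so differences of low genes are understated. For each comparison, limma (3.58.1, R 4.3.3, trended prior) was run on the genes whose mean in its libraries reached 10, with p adjusted by Benjamini-Hochberg over all genes and a threshold of 0.05. Major and minor clones were compared with the tumour as a block, other comparisons with mouse as a covariate. The tumour number pairs clones of the same tumour. Over 20 pairs the correlation of their deviations from the group means ran from -0.10 to 0.56, with 16 over 0.1. In 8 of the 20 the major clone correlated best with its own minor clone among those of its mouse. Which clone was major was taken from the order of clones that the study gives for each sample title. Tumours came from 2 mice, so p-values measure the spread between tumours, not between mice. Comparisons of a clone class with undivided tumours used separate tumours.

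The genes named were members that passed a test, the 4 members of each class with the highest level per kb, partner chains of named trimers and pathway genes that passed; others are said to have been chosen after their values were seen. The members and the lists were chosen with earlier results of these data known. Chain ratios, pairs of members the test of segment by mouse in undivided tumours and the fits without M15, M17 and M18 were added after the data were seen. Correlations and ratios used Python (3.11.15) with numpy (2.4.6). Some of the tests across genes, not all of them, were tested on simulated data. Alternatives were pseudocounts of 0.1 and 5, a mean of at least 50 or no filter, quantile normalisation, scaling to equal sums, no trend, other covariates, each mouse alone and leaving out each tumour or library. Positions are from the GRCm39 annotation and sequences from RefSeq (GRCm38.p6).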

Additional observations from a re-analysis of the deposited data

Results flagged for a closer look

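Of 112 groups examined (14 members in 8 groups each), 5 held a tumour far from the others by Dixon's test, where chance gives about 1 in 20. In 4 of the 5 it was M8 among the 6 undivided SI20 tumours of the male mouse, which had the lowest level of both main type IV chains and of 2 type VI chains. The log2 level of Col4a1 was 9.73 in M8 and between 11.59 and 12.56 in the others, and that of Col4a2 was 9.21 against 10.81 to 11.64. Col6a1 was at 7.18 against 9.32 to 10.43 and Col6a2 at 7.24 against 9.46 to 10.60. Among the 10 divided SI20 tumours, M27 had a mean log2 level of Col15a1 of 6.27, where the others lay between 7.47 and 8.74.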

How the results depend on the processing

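The count of members past the test between major and minor clones was 0 under every alternative but those that follow. In the male mouse alone it was 1 (Col15a1), and without 1 tumour in turn it ran from 0 to 3. With no replicate block, mouse as a covariate in place of the pairing by tumour, it was 0, and of all genes 1 passed in place of 188. With no filter on low values 1 member passed between undivided tumours and minor clones (Col6a6). In the other 4 comparisons refitted without each tumour or library in turn the count stayed 0; the 4 tests of a difference between differences were not refitted in this way. Between clones the direction reversed in the female mouse alone for Col4a1 (-0.31), Col4a2 (-0.21), Col15a1 (-0.091) and Col6a3 (-0.23), in the male mouse alone for Col4a5 (0.17), Col12a1 (0.39) and Col23a1 (0.17), and without the tumour with 2 segment labels for Col4a5 (0.019). Without 1 tumour in turn Col4a1 ran from -0.012 to 0.23, Col4a5 from -0.11 to 0.074 and Col6a3 from -0.0072 to 0.31. Between segments of undivided tumours it reversed in the female mouse alone for Col1a1 (-0.12), Col1a2 (-0.57), Col5a2 (-0.32), Col18a1 (-0.013) and Col6a1 (-0.61). The causes were not tested. Of all genes, 188 passed between clones, 85 with no filter, 89 without trend, 42 without F22, 366 after quantile normalisation, 292 with equal sums, 0 in the female and 33 in the male mouse alone, and 25 to 859 without 1 tumour in turn. Against minor clones 610 passed, 367 with segment as a covariate, 325 with SI10 and SI20 only, 828 without M15, M17 and M18, 0 in the female and 757 in the male mouse alone, and 274 to 959 without 1 library in turn. Between segments 28 passed in undivided tumours (18 with a pseudocount of 0.1, 0 without M15, M17 and M18, 0 in the female and 46 in the male mouse alone, 5 to 53 without 1 library in turn) and 46 in divided ones (12 from minor clones only, 13 to 215 without 1 tumour in turn). Scaling to equal sums moved the median of all genes to -0.11 against minor clones and to 0.11 between segments of undivided tumours.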
